A study of Oryza sativa Japonica Group with 4 samples.

Results

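Pollen wall synthesis genes were followed in anthers of rice (Oryza sativa ssp. japonica cv. Tainung 67) as 8 genes, out of 35825 gene rows in the tables. A row was taken when its name held the P450 designation of CYP703A3 or CYP704B2, or the words defective pollen wall, tetraketide, wax-deficient anther or no pollen. The IDs Os08g0131100 (CYP703A3) and Os10g0524500 (NP1) led to 2 of the same rows. ABC transporters were not included. The 8 genes were CYP703A3, CYP704B2, DPW, TKPR1, WDA1, NP1, DPW2 and NOP.

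The plants came from sstl, a semi-sterile line of a T-DNA insertion collection in Tainung 67. The insertion lies in a Mei2-like gene, but sterility did not travel with it among the progeny, so the sequence change behind the phenotype is not tagged. The sstl-s libraries came from anthers of sterile panicles, and the SSTL-F libraries, which the labels call control, came from anthers of fertile panicles that segregated in the same progeny. Both groups therefore carry the background of the mutant line, and both were grown in the same kind of chamber. Anthers were taken at the late pollen mitosis stage (LpM) and at the young microspore stage (YM). RNA was sequenced as 1 library for each of the 2 genotypes at each of the 2 stages, 4 libraries in all. How many plants or anthers went into a library is not given in the sources used here, and no difference below has a replicate library.

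Sporopollenin is the tough lipid and phenolic polymer of the outer pollen wall, the exine. It is made mostly in the tapetum, the cell layer that lines the anther locule and feeds the microspores, and then moved to their surface. Its fatty acid precursors are hydroxylated by cytochrome P450 enzymes, activated with coenzyme A and extended by polyketide synthases, whose products are reduced by tetraketide pyrone reductases. Other fatty acyl groups are reduced to alcohols. Related lipids form the cutin and wax on the outside of the anther.

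CYP703A3 and CYP704B2 are P450 hydroxylases of fatty acids, in the middle of the chain for CYP703A3 and at its end for CYP704B2. DPW is a fatty acyl reductase that makes fatty alcohols, and its row is also named MALE STERILITY 2. NP1 is a glucose-methanol-choline oxidoreductase of anther lipids. TKPR1 is a tetraketide pyrone reductase, and its row also carries the name dihydroflavonol-4-reductase 2. WDA1 is needed for the very-long-chain lipids of the anther surface. DPW2 is a BAHD acyltransferase that joins phenolic acids to hydroxylated fatty acids. NOP entered by its name alone. Its product is a protein with C2 and GRAM domains, known from a mutant without pollen, and is not an enzyme of wall lipids.

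All 8 rows are given by name, and each was placed by the IDs of the rows beside it. In that order CYP703A3 (Os08g0131100) lay between Os08g0131000 and Os08g0131150, NP1 (Os10g0524500) between Os10g0524300 and Os10g0524700, and WDA1 between Os10g0471000 and Os10g0471350. CYP704B2 lay between Os03g0168550 and Os03g0168650, DPW between Os03g0167550 and Os03g0167650, TKPR1 between Os09g0493400 and Os09g0493600, DPW2 between Os01g0924800 and Os01g0925000, and NOP between Os06g0607850 and Os06g0608000. Genome coordinates were not used here. For CYP703A3 and NP1, the members with an ID in the primer list of the study, the q-PCR primers are shown as listed. They were not aligned to transcript sequences, and no q-PCR value was analysed here.
CYP703A3 forward: ctaggcgtcgtgtggacaataa
CYP703A3 reverse: tgcatagctcgatcggcttct
NP1 forward: gcattgcaaaaacaaagcgg
NP1 reverse: ttcttcgtcatgcccttgg

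The libraries held 11076871 counted reads for sstl-s and 11523243 for SSTL-F at LpM, and 11559430 for sstl-s and 10161675 for SSTL-F at YM. Levels below are normalized CPM, that is counts scaled to a common library size with TMM factors over the 4 libraries, unless RPKM (the deposited values, scaled to gene length as well as library size) is named. A level of 3 counts, the upper limit that a count of 0 allows, was 0.246 to 0.309 normalized CPM. A log2 fold-change was taken with a prior count of 1, and its 95% interval was derived from an exact Clopper-Pearson interval (that of the proportion of a gene's reads found in one library of the pair). With 1 library per genotype and stage, the intervals cover counting error only. Reads carried no molecular identifiers, so copies made in amplification may leave the intervals too narrow even for that error. The line for a difference was 2-fold. All 8 genes passed the filter of at least 10 counts in 1 library, which 24543 genes passed.

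At YM, 3 of the 8 wall genes, NP1, TKPR1 and CYP703A3, were at least 2-fold lower in sstl-s than in SSTL-F, and 4.24% of the 24543 expressed genes were that much lower. The study had picked NP1 and CYP703A3 from these same libraries as more than 2-fold higher in SSTL-F at YM. For both genes it also reported a change of more than 2-fold by q-PCR, whose values were not analysed here. The calls of NP1 and CYP703A3 from the libraries repeat that choice, so 3 of 8 cannot be weighed against the share of all expressed genes. All 8 log2 fold-changes of sstl-s over SSTL-F were below 0 at this stage, 7 of them with the whole counting interval. The share of all expressed genes below 0 in either way was not computed. The value of NOP, at -0.047, changed sign under 3 other scalings. The median of the 8 was -0.75 against -0.032 over all expressed genes. None of the 8 was at least 2-fold higher, against 8.21% of the expressed genes. The picked genes are part of this median and this count too, so neither can be weighed against all expressed genes. For the members that the study had not picked, the log2 fold-changes ran from -1.44 for TKPR1 to -0.047 for NOP. Among the genes with at least 100 counts in 1 of the YM libraries, 7 of which are members, 1.63% were at least 2-fold lower and 3.14% at least 2-fold higher. At LpM none of the 8 was 2-fold away in either direction, where 6.58% of the expressed genes were 2-fold lower and 4.45% 2-fold higher. Of the genes with at least 100 counts in 1 of the LpM libraries, 3.39% were 2-fold lower and 1.41% 2-fold higher. The median of the 8 at LpM was -0.017, against 0.0078 over all expressed genes. The libraries are of whole anthers, so fewer tapetal cells and less RNA per tapetal cell cannot be told apart.

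**Figure D1:**
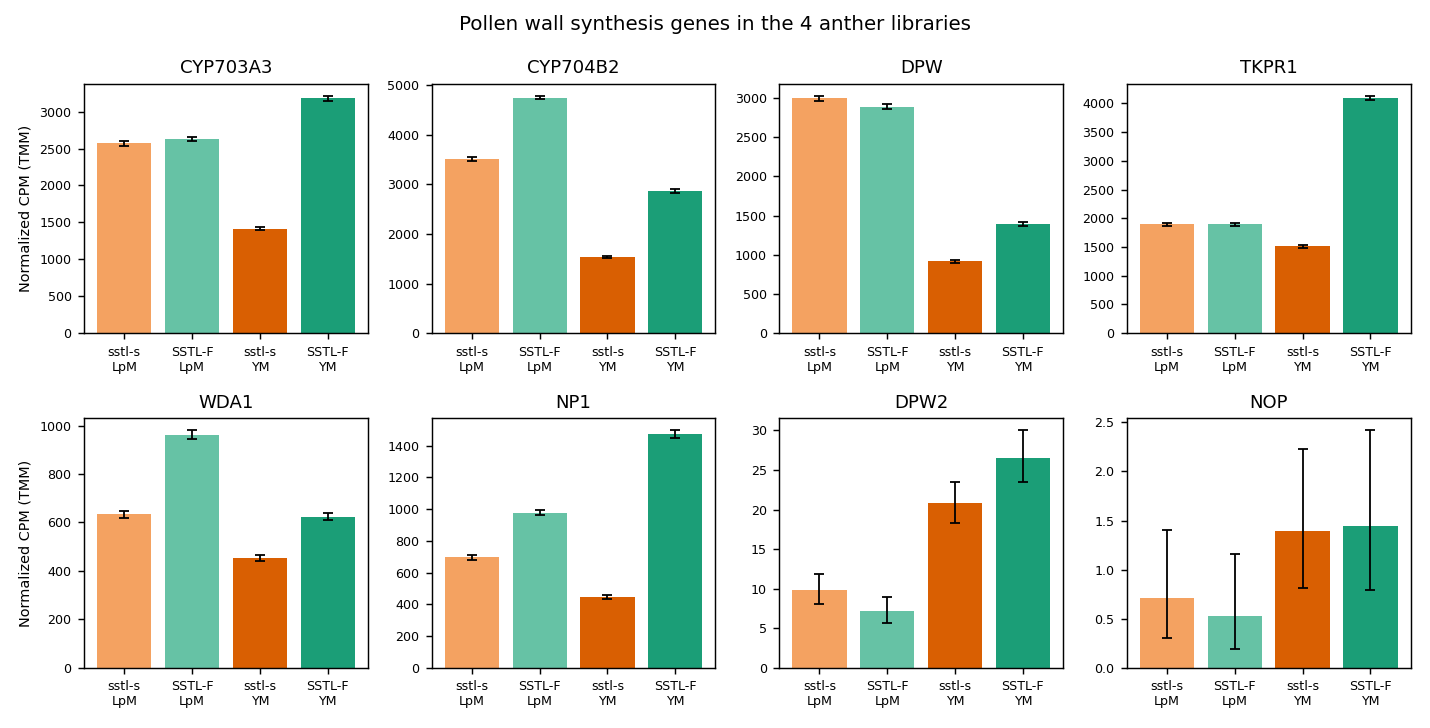
Normalized CPM (TMM) of the 8 genes in the 4 anther libraries, with 1 bar per library, a linear axis from 0 in each panel and 95% exact counting intervals as error bars. The sstl-s YM bar is the lowest of the 4 for CYP703A3, CYP704B2, DPW, TKPR1, WDA1 and NP1, while the LpM bars of DPW2 and NOP are below the YM bars of the same genotype.

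The fatty acid hydroxylases were among the most abundant messages of the anther, between rank 3 and rank 23 of all rows by RPKM in the 4 libraries. CYP703A3 had 28841 counts in sstl-s LpM and 29630 in SSTL-F LpM, against 17209 in sstl-s YM and 30894 in SSTL-F YM. Normalized, these were 2570 CPM in sstl-s LpM and 2626 CPM in SSTL-F LpM, and 1411 CPM in sstl-s YM and 3183 CPM in SSTL-F YM. The sterile YM library was the lowest, and the other 3 lay between 2570 and 3183 CPM. CYP703A3 was 2.26-fold lower in sstl-s than in SSTL-F at YM (log2 fold-change -1.17, interval -1.20 to -1.15). With log2(RPKM + 1) in place of counts this value was -0.997, just short of the line. At LpM the log2 fold-change was -0.031 (interval -0.054 to -0.0074), and it turned positive with the total count only, with quantile normalization and with RPKM, up to 0.20.

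CYP704B2 had 39460 counts in sstl-s LpM and 53668 in SSTL-F LpM, against 18774 in sstl-s YM and 27834 in SSTL-F YM. It was the most highly ranked of the 8 by RPKM at LpM, at rank 3 of all rows in sstl-s and rank 4 in SSTL-F. Its normalized levels were 3517 CPM in sstl-s LpM and 4756 in SSTL-F LpM, against 1539 in sstl-s YM and 2867 in SSTL-F YM. In both stages the sterile library was below the fertile one, with a log2 fold-change of -0.44 at LpM (interval -0.45 to -0.42) and -0.90 at YM (interval -0.92 to -0.87), both short of 2-fold. Under quantile normalization the LpM value of CYP704B2 was 0, because the gene then held the same rank in both libraries, and its YM value was -0.40.

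DPW, whose product turns fatty acyl groups into the alcohols of the wall, had 33658 counts in sstl-s LpM and 32623 in SSTL-F LpM, against 11181 in sstl-s YM and 13513 in SSTL-F YM. Its levels of 3000 CPM in sstl-s LpM and 2891 CPM in SSTL-F LpM were close, with a log2 fold-change of 0.05 (interval 0.03 to 0.08). At YM it had 916 CPM in sstl-s and 1392 CPM in SSTL-F (log2 fold-change -0.60, interval -0.64 to -0.57). DPW thus had the smallest YM difference of the 3 fatty acid enzymes described so far.

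NP1 had 7820 counts in sstl-s LpM and 11038 in SSTL-F LpM, against 5463 in sstl-s YM and 14296 in SSTL-F YM. The normalized levels were 697 CPM in sstl-s LpM and 978 CPM in SSTL-F LpM, and 448 CPM in sstl-s YM and 1473 CPM in SSTL-F YM. The fertile YM library was highest and the sterile YM library lowest. With 3.29-fold less in sstl-s than in SSTL-F at YM (log2 fold-change -1.72, interval -1.76 to -1.67), NP1 had the largest difference of the 8, at rank 265 from the lowest of the 24543 expressed genes. At LpM its log2 fold-change was -0.49 (interval -0.53 to -0.45), not 2-fold.

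TKPR1, which acts after the polyketide synthases, had 21244 counts in sstl-s LpM and 21398 in SSTL-F LpM, against 18441 in sstl-s YM and 39784 in SSTL-F YM. Its 1893 CPM in sstl-s LpM and 1896 CPM in SSTL-F LpM were the closest pair of the 8 genes, with an interval of the log2 fold-change of -0.03 to 0.03. That LpM value was positive with the total count only, with quantile normalization and with RPKM, up to 0.23. At YM the level was 1512 CPM in sstl-s and 4098 CPM in SSTL-F, 2.71-fold lower in the sterile anthers (log2 fold-change -1.44, interval -1.46 to -1.41). TKPR1 was at rank 465 from the lowest of the expressed genes at YM, and CYP703A3 at rank 717.

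WDA1, the gene of anther surface lipids, had 7110 counts in sstl-s LpM and 10858 in SSTL-F LpM, against 5542 in sstl-s YM and 6062 in SSTL-F YM. Its levels were 634 CPM in sstl-s LpM and 962 in SSTL-F LpM, against 454 in sstl-s YM and 624 in SSTL-F YM. WDA1 was the only one of the 8 whose log2 fold-change was further below 0 at LpM (-0.60, interval -0.65 to -0.56) than at YM (-0.46, interval -0.51 to -0.41). Neither reached 2-fold. The level of WDA1 in the sterile LpM library was near that in the fertile YM library, with a log2 fold-change of 0.021 of sstl-s LpM over SSTL-F YM (interval -0.029 to 0.071).

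DPW2 and NOP were expressed at far lower levels. DPW2 had 110 counts in sstl-s LpM and 81 in SSTL-F LpM, against 254 in sstl-s YM and 258 in SSTL-F YM. Normalized, these were 9.80 CPM in sstl-s LpM and 7.18 CPM in SSTL-F LpM, and 20.8 CPM in sstl-s YM and 26.6 CPM in SSTL-F YM. Its log2 fold-change was 0.44 at LpM (interval 0.022 to 0.88) and -0.35 at YM (interval -0.61 to -0.097), so the sterile library was above the fertile one at LpM and below it at YM, each time by less than 2-fold. NOP had 8 counts in sstl-s LpM and 6 in SSTL-F LpM, against 17 in sstl-s YM and 14 in SSTL-F YM. A difference of NOP between the genotypes was not detectable at this depth, with intervals of -1.29 to 2.23 at LpM and -1.16 to 1.08 at YM, and the direction at YM (-0.047) turned with the total count only, with TMM per comparison and with RPKM.

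**Figure D2:**
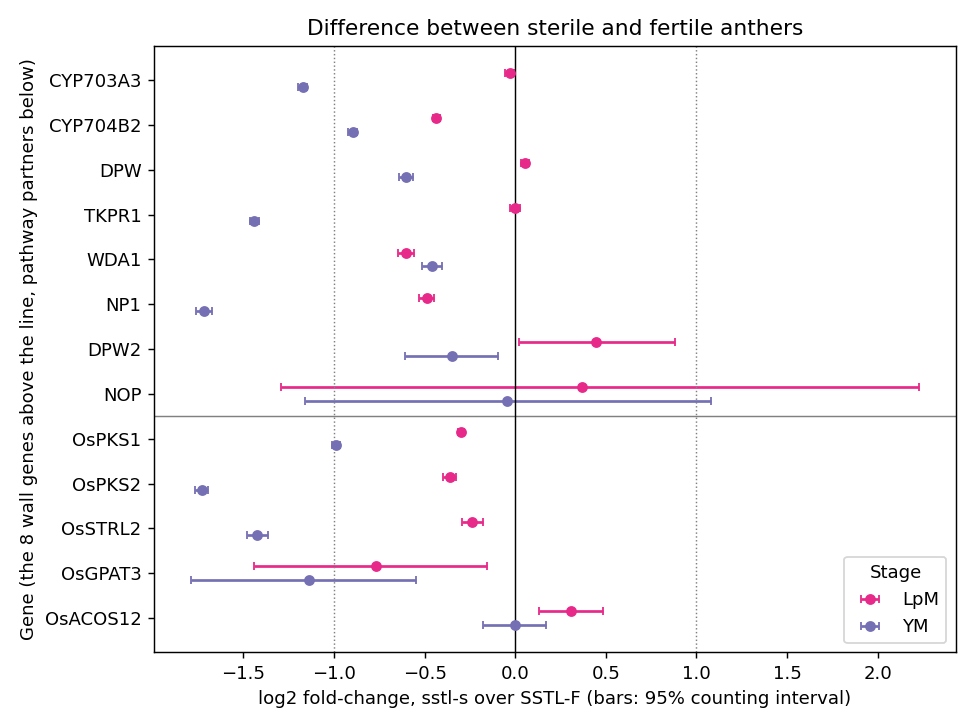
Log2 fold-change of sstl-s over SSTL-F at LpM and at YM for the 8 wall genes (above the line) and 5 partner genes of the pathway (below it), with bars for the 95% counting interval and dotted lines at 2-fold. The YM points of NP1, TKPR1 and CYP703A3 lie left of the 2-fold line, while the LpM points of all 8 lie between the dotted lines.

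The difference between the genotypes was also compared between the 2 stages. The counting interval of its change excluded 0 for each of the 8 genes but NOP. Many reads make these intervals narrow, and the share of all expressed genes with such a change was not computed. Taking the log2 fold-change of sstl-s over SSTL-F at LpM minus that at YM, TKPR1 moved by 1.44 (interval 1.40 to 1.47), NP1 by 1.23 (interval 1.17 to 1.29) and CYP703A3 by 1.14 (interval 1.11 to 1.18). These are the genes lower by 2-fold at YM, and the YM value is subtracted in the move, so the match is no separate result. The move was 0.80 for DPW2 (interval 0.32 to 1.29), 0.66 for DPW (interval 0.61 to 0.70) and 0.46 for CYP704B2 (interval 0.43 to 0.49). It was -0.14 for WDA1 (interval -0.21 to -0.076), the opposite sign. For NOP the interval included 0.

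The same 4 libraries can also be read between the stages within each genotype. In sstl-s, 2 of the 8 genes, DPW and CYP704B2, were at least 2-fold higher at LpM than at YM, and 7.39% of the expressed genes were (3.47% of those with at least 100 counts in either library). DPW2 was the only member at least 2-fold lower, against 4.51% of the expressed genes (1.80% of those with at least 100 counts). The median log2 fold-change of LpM over YM in sstl-s was 0.56 for the 8 genes and 0.0048 for all expressed genes. In SSTL-F only DPW was at least 2-fold higher (12.0% of the expressed genes were, and 6.93% of those with at least 100 counts in either library), while TKPR1, DPW2 and NOP were at least 2-fold lower (4.95% of the expressed genes were, and 3.36% of those with at least 100 counts). The median in SSTL-F was -0.43, against -0.022 for all expressed genes. The NOP value in SSTL-F rests on 6 counts at LpM and 14 at YM, its interval of -3.11 to 0.030 included 0, and it was not 2-fold with a prior count of 5 (-0.95) or with log2(RPKM + 1) (-0.45).

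CYP703A3, TKPR1 and NP1 ran in opposite directions in the 2 genotypes. For each gene, the gap between its 2 stage changes is the same quantity as the move given above. The log2 fold-change of LpM over YM for CYP703A3 was 0.87 in sstl-s (interval 0.84 to 0.89) and -0.28 in SSTL-F (interval -0.30 to -0.25). For TKPR1 it was 0.32 in sstl-s (interval 0.30 to 0.35, and 0 under quantile normalization) and -1.11 in SSTL-F (interval -1.14 to -1.09). For NP1 it was 0.64 in sstl-s (interval 0.59 to 0.69) and -0.59 in SSTL-F (interval -0.63 to -0.55). Of these 6 changes only that of TKPR1 in SSTL-F was 2-fold.

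DPW, CYP704B2 and WDA1 were above their YM level at LpM in both genotypes. DPW had log2 fold-changes of LpM over YM of 1.71 in sstl-s (interval 1.68 to 1.74) and 1.05 in SSTL-F (interval 1.03 to 1.08). CYP704B2 had 1.19 in sstl-s (interval 1.17 to 1.22) and 0.73 in SSTL-F (interval 0.71 to 0.75), and its value in sstl-s fell short of 2-fold under quantile normalization, at 0.70. WDA1 had 0.48 in sstl-s and 0.62 in SSTL-F. DPW2, the acyltransferase, went the other way in both, with -1.08 in sstl-s (interval -1.42 to -0.76, and -0.95 with log2(RPKM + 1)) and -1.88 in SSTL-F (interval -2.27 to -1.52).

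**Figure D3:**
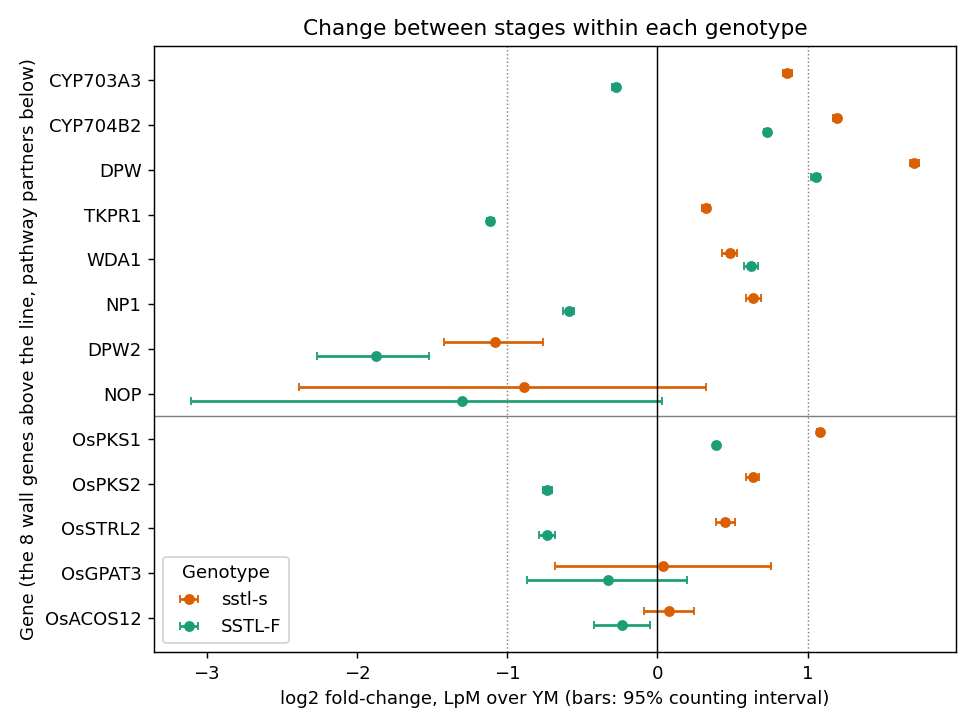
Log2 fold-change of LpM over YM in sstl-s and in SSTL-F for the 8 wall genes (above the line) and 5 partner genes (below it), with bars for the 95% counting interval and dotted lines at 2-fold. For CYP703A3, TKPR1, NP1, OsPKS2 and OsSTRL2 the sstl-s point lies right of 0 and the SSTL-F point left of it.

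The sterile LpM library was also set against the fertile YM library. DPW was 2.15-fold higher in sstl-s LpM than in SSTL-F YM (log2 fold-change 1.11), CYP704B2 had a log2 fold-change of 0.29 and CYP703A3 of -0.31. TKPR1 (-1.11), NP1 (-1.08) and DPW2 (-1.43) were at least 2-fold lower in sstl-s LpM. The share of all expressed genes past 2-fold in this comparison was not computed, so these calls cannot be read as particular to the wall genes. This comparison joins genotype and stage, which cannot be told apart in it.

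Together the 8 genes took 1.25% of all counted reads in sstl-s LpM and 1.38% in SSTL-F LpM, against 0.665% in sstl-s YM and 1.31% in SSTL-F YM. The sterile YM library held 76881 such reads of 11559430, an exact Clopper-Pearson interval of 0.660% to 0.670%. The share of this library was the smallest of the 4, below the intervals of the other 3. The summed RPKM was 5100 in sstl-s LpM and 5073 in SSTL-F LpM, against 2489 in sstl-s YM and 4653 in SSTL-F YM. The RPKM values differ from TMM in library scaling as well as in gene length. Against TMM they shifted the median of all expressed genes towards sstl-s, by 0.18 at LpM and 0.14 at YM. The near-equal LpM sums can therefore not be put down to gene length.

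**Figure D4:**
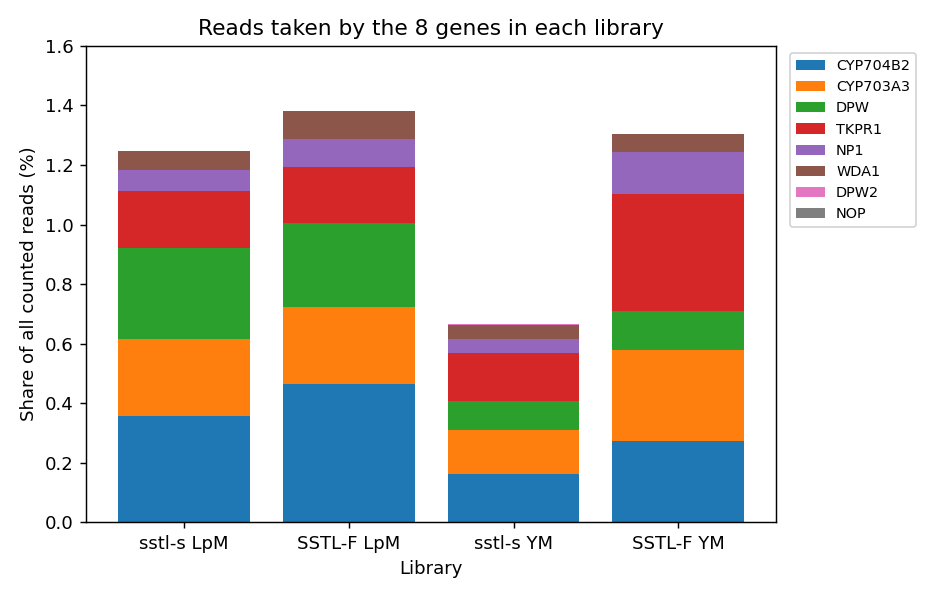
Share of all counted reads (%) taken by the 8 genes in each of the 4 libraries, stacked by gene. The total is 1.25% in sstl-s LpM and 1.38% in SSTL-F LpM, against 0.665% in sstl-s YM and 1.31% in SSTL-F YM, and DPW2 and NOP are too small to see.

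Within this sum the genes shifted against each other. TKPR1 made up 15.4% of the reads of the 8 genes in sstl-s LpM and 13.4% in SSTL-F LpM, against 24.0% in sstl-s YM and 30.0% in SSTL-F YM. CYP704B2 held 28.5% in sstl-s LpM and 33.7% in SSTL-F LpM, against 24.4% in sstl-s YM and 21.0% in SSTL-F YM. TKPR1 thus led in the fertile YM library and CYP704B2 in the other 3. DPW, the alcohol-forming reductase, held 24.3% in sstl-s LpM and 20.5% in SSTL-F LpM, and 14.5% in sstl-s YM and 10.2% in SSTL-F YM. The share of CYP703A3 stayed between 18.6% and 23.3%.

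By RPKM, which allows levels to be set side by side between genes, the order was not the same in the libraries. In both LpM libraries it was CYP704B2, CYP703A3, DPW, TKPR1, NP1, WDA1, DPW2 and NOP, with CYP704B2 at 1812 RPKM in sstl-s and 2087 RPKM in SSTL-F, and NOP at 0.409 RPKM in sstl-s and 0.260 RPKM in SSTL-F. In sstl-s YM it began with CYP704B2 (787 RPKM, rank 16 of all rows) and CYP703A3 (679 RPKM, rank 23), and TKPR1 (336 RPKM) and DPW (334 RPKM) were level. Next in sstl-s YM came NP1 (187 RPKM, rank 274), WDA1 (154 RPKM), DPW2 (11.1 RPKM) and NOP (0.792 RPKM). In SSTL-F YM the order ran from CYP703A3 (1356 RPKM, rank 7) and CYP704B2 (1298 RPKM, rank 11) through TKPR1 (806 RPKM, rank 19), NP1 (543 RPKM, rank 40), DPW (449 RPKM, rank 58) and WDA1 (188 RPKM, rank 251) to DPW2 (12.6 RPKM) and NOP (0.726 RPKM). NP1 and TKPR1, both 2-fold lower in sstl-s at YM, stood above DPW in the fertile YM library, and DPW stood level with TKPR1 and above NP1 in the sterile one.

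The other genes of the pathway were OsACOS12 (an acyl-CoA synthetase that activates the fatty acids), OsPKS1 and OsPKS2 (the polyketide synthases), OsGPAT3 (a glycerol-3-phosphate acyltransferase of anther lipids) and OsSTRL2 (a strictosidine synthase-like protein of the exine pathway), 5 in all. At YM, 3 of the 5 were at least 2-fold lower in sstl-s than in SSTL-F (OsPKS2, OsSTRL2 and OsGPAT3) and none was higher, where 4.24% of the expressed genes were lower and 8.21% higher, and the median of the 5 was -1.14 on the log2 scale. At LpM none of the 5 was past 2-fold (6.58% of the expressed genes were lower and 4.45% higher), with a median of -0.30. In sstl-s, OsPKS1 was the only one of the 5 that was at least 2-fold higher at LpM than at YM (7.39% of the expressed genes were) and none was lower (4.51% were). In SSTL-F none of the 5 changed by 2-fold, where 12.0% of the expressed genes were higher and 4.95% lower.

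OsPKS2 had 11422 counts in sstl-s LpM and 14767 in SSTL-F LpM, against 8002 in sstl-s YM and 21133 in SSTL-F YM. As with NP1, the fertile YM library was the highest and the sterile YM library the lowest. The log2 fold-change of sstl-s over SSTL-F for OsPKS2 was -0.36 at LpM and -1.73 at YM. OsSTRL2 had 4332 counts in sstl-s LpM and 5130 in SSTL-F LpM, against 3443 in sstl-s YM and 7346 in SSTL-F YM, with -0.24 at LpM and -1.42 at YM.

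OsPKS1 was the most abundant of the wall and partner genes in each library. It had 2616 RPKM in sstl-s LpM and 2741 in SSTL-F LpM, against 1226 in sstl-s YM and 2152 in SSTL-F YM, rank 2 of all rows in each of these libraries but sstl-s YM, where it was at rank 8. Its YM log2 fold-change of -0.99 (interval -1.01 to -0.96) was just short of the 2-fold line, and it was -0.50 under quantile normalization and -0.81 with log2(RPKM + 1). That at LpM was -0.30, or 0 under quantile normalization. The 2-fold rise of OsPKS1 between the stages in sstl-s (1.08) was 0.27 under that normalization.

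OsACOS12, which acts before the polyketide synthases, did not follow them. It had 593 counts in sstl-s LpM and 482 in SSTL-F LpM, against 612 in sstl-s YM and 488 in SSTL-F YM. Its YM levels of 50.2 CPM in sstl-s and 50.3 CPM in SSTL-F gave a log2 fold-change of -0.0031 (interval -0.18 to 0.17), whose sign turned with 5 of the other scalings, up to 0.15. At LpM it was 0.31 (interval 0.13 to 0.48). OsGPAT3 had only 34 counts in sstl-s LpM and 59 in SSTL-F LpM, against 36 in sstl-s YM and 64 in SSTL-F YM, and its YM log2 fold-change of -1.14 (interval -1.79 to -0.55) was not 2-fold with the total count only or with RPKM.

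Of the transport genes, OsABCG15, an exporter of wall lipids, had log2 fold-changes of sstl-s over SSTL-F of -0.44 at LpM and -1.14 at YM, while OsABCG26 had 0.90 at LpM and -0.26 at YM.

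The genes with the most similar course over the 4 libraries were searched among the 15749 genes with at least 100 counts in 1 library, by the Euclidean distance of log2 levels centred on each gene's mean. For NP1, the nearest was OsPKS2 (the row named POLYKETIDE SYNTHASE 10) at a distance of 0.117, followed by ADENYLATE KINASE B (0.200), ETHYLENE RESPONSE FACTOR 128 (0.252), ZETA GLUTATHIONE S-TRANSFERASE 4 (0.256) and OsSTRL2 (0.321). So 2 of the 5 nearest genes of NP1 were pathway partners. Each distance rests on 4 points, which share library and depth.

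For CYP703A3, the 5 nearest were Os08g0263400 (0.147), ALDO-KETO REDUCTASE 2 (0.165), Os06g0702400 (0.171), F-box protein 270 (0.172) and TREHALOSE-6-PHOSPHATE SYNTHASE 4 (0.186), none of them from the lists of the pathway. For WDA1, the gene with the largest LpM difference among the members with 100 counts, the nearest were trichome birefringence-like 6 (0.019), class III peroxidase 55 (0.023), cell wall invertase 1 (0.024), UDP-xylose synthase 6 (0.024) and Os03g0194500 (0.041). Looked up after its values were seen, CYP704B2 was closest among the wall and partner genes to OsPKS1, at 0.252. OsPKS1 was only at rank 28 of the 15749 genes for CYP704B2, whose nearest gene was Os03g0701500 at 0.122.

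Regulators of the tapetum were TDR, EAT1, TIP2 and UDT1 (basic helix-loop-helix factors), GAMYB (a MYB factor) and PTC1 (a PHD-finger protein). At YM 0 of the 6 were 2-fold lower or higher in sstl-s, where 4.24% of the expressed genes were lower and 8.21% higher. For so few genes, none past the line is near those shares. For 5 of the 6 the whole counting interval was below 0 at YM, a share that was not computed for all expressed genes. The median of the 6 was -0.50 on the log2 scale. TDR had -0.59 at YM and EAT1 -0.81, the lowest of the 6. The 6 together took 0.0919% of all counted reads in sstl-s LpM and 0.0958% in SSTL-F LpM. At YM they took 0.0864% in sstl-s and 0.114% in SSTL-F. By summed RPKM the order at LpM was the opposite, with 389 in sstl-s and 357 in SSTL-F. The YM sums were 346 RPKM in sstl-s and 445 RPKM in SSTL-F. None of the 6 was at 0 counts. At LpM, where 4.45% of the expressed genes were 2-fold higher and 6.58% lower, 1 of the 6, TIP2, passed 2-fold. It was higher in sstl-s (log2 fold-change 1.28), with 416 counts in sstl-s and 172 in SSTL-F. Messages of the tapetum were thus present in all 4 libraries.

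Markers of other cell types also differed between the libraries. The meiocyte genes MEL1, PAIR2, PAIR3 and ZEP1 had log2 fold-changes of 0.58 to 1.18 at LpM and 0.025 to 0.69 at YM, and 2 of the 4, PAIR3 and ZEP1, were 2-fold higher at LpM, where 4.45% of the expressed genes were, both with intervals that reached below the line. At YM 0 of the 4 were 2-fold higher, where 8.21% of the expressed genes were. Their summed RPKM was 68.2 in sstl-s LpM and 35.1 in SSTL-F LpM, against 118 in sstl-s YM and 86.4 in SSTL-F YM. The late pollen genes Os09g0381400 and Os09g0388400, which the study picked from these libraries, summed to 23.7 RPKM in sstl-s LpM and 82.2 in SSTL-F LpM, against 5.26 in sstl-s YM and 48.4 in SSTL-F YM. Between the stages these genes ran in opposite ways, with log2 fold-changes of LpM over YM of 3.38 in sstl-s and 4.18 in SSTL-F for Os09g0381400, and of -0.72 in sstl-s and -1.17 in SSTL-F for Os09g0388400. The light-harvesting row, a mark of green anther wall, had 81.1 RPKM in sstl-s LpM and 53.5 in SSTL-F LpM, against 45.7 in sstl-s YM and 28.8 in SSTL-F YM. From counts, its log2 fold-change of sstl-s over SSTL-F was 0.37 at LpM and 0.49 at YM. Between the genotypes, the RPKM values of the markers carry the shift towards sstl-s given above. The part of the marker differences in the values of the wall genes was not tested.

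DPW and CYP704B2 lie near each other on chromosome 3, with 12 rows between them in the order of the IDs, of which 10 passed the filter. The highest level of any row in between was 199 CPM. At LpM none of the 10 was 2-fold away in sstl-s, where 6.58% of the expressed genes were lower and 4.45% higher. At YM none was 2-fold lower (4.24% of the expressed genes were) and 1, Os03g0167750, was 2-fold higher (8.21% were). It had 27 counts in sstl-s and 9 in SSTL-F, and its interval of 0.12 to 2.53 reached below the line. For 10 genes, such counts are near those shares.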

How the data were processed

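RNA of anthers extracted with TRIzol was sequenced by the authors as single-end libraries on an Illumina HiSeq instrument, and reads were counted with CLC Genomics Workbench on RAP-DB gene models. The build, mapping settings and use of strand are not given in the sources used here, so reads shared by near-identical copies (P450, polyketide synthase and reductase families) or by overlapping genes may have been split. The authors deposited total counts, which are the basis of the results. The deposited RPKM values served to compare levels between genes and as an alternative. The deposited TPM values were only inspected, and a deposited column named CPM, treated as a score because its sum differs between libraries, was not used.

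Of 35825 rows, 26346 are given by RAP-DB ID and the rest by name. Named rows were placed by the IDs beside them. OsC6, with no single row at its place, was not analysed here. Counts (10161675 to 11559430 per library) were scaled with TMM in edgeR 4.0.16 (R 4.3.3), with a prior count of 1. With 1 library per genotype and stage, the differences within a stage or a genotype leave no residual degrees of freedom, and p-values were not computed. Named were all members, the partner and marker lists, and the 5 most similar genes for 3 members. Members and lists were chosen with earlier results of these data known. The interval of the change of a difference between stages used a normal approximation on the log scale. The steps were tested on simulated counts.

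Alternatives were the total count only, DESeq2 1.42.0 size factors, TMM per comparison, quantile normalization, prior counts of 0.25 and 5, log2(RPKM + 1), no filter, and at least 50 counts in 1 library. Other software was matplotlib 3.10.9, scipy 1.17.1, pandas 2.3.3 and numpy 2.4.6 in Python 3.11.15.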

Additional observations from a re-analysis of the deposited data

Results flagged for a closer look

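Some of the 8 wall genes and the 5 partner genes moved in opposite directions between YM and LpM in the sterile and the fertile anthers. The change of LpM over YM was larger in sstl-s than in SSTL-F by 1.44 on the log2 scale for TKPR1 (0.32 in sstl-s, -1.11 in SSTL-F), by 1.37 for OsPKS2 (0.63 in sstl-s, -0.73 in SSTL-F), by 1.23 for NP1 (0.64 in sstl-s, -0.59 in SSTL-F), by 1.19 for OsSTRL2 (0.45 in sstl-s, -0.73 in SSTL-F) and by 1.14 for CYP703A3 (0.87 in sstl-s, -0.28 in SSTL-F). For DPW and DPW2, the genotypes swapped order between the stages. The log2 fold-change of sstl-s over SSTL-F was 0.05 at LpM and -0.60 at YM for DPW, a move of 0.66, and 0.44 at LpM and -0.35 at YM for DPW2, a move of 0.80. The LpM value of DPW was small, at 0.034 to 0.28 over the alternatives. For genes with many reads, small changes are enough for such a flag. The share of all expressed genes that would be flagged in the same way was not computed. With 1 library per genotype and stage these differences were not tested beyond counting error.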

How the results depend on the processing

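With 1 library per genotype and stage, no library could be left out of a comparison. A fit of the genotype difference with the stage as a block, which would leave 1 residual degree of freedom, was not run. The number of the 8 genes at least 2-fold lower in sstl-s at LpM than at YM was 1, and it was 2 with quantile normalization and 0 with log2(RPKM + 1). The number at least 2-fold higher in that comparison was 2, and 1 with quantile normalization. The counts of members at least 2-fold lower or higher between the genotypes at YM and LpM, and between the stages in SSTL-F, stayed within 1.5 times under the alternatives run. Of 364 values of single genes under the alternatives, 265 stayed within their counting interval, 99 moved beyond it, and 0 called values changed sign. NP1 and TKPR1 were at least 2-fold lower in sstl-s at YM in every alternative run, with log2 fold-changes of -1.39 for NP1 and -1.08 for TKPR1 at the weakest, while CYP703A3 fell short with log2(RPKM + 1). Quantile normalization brought the YM value nearer to 0 for CYP704B2 (-0.40), DPW (-0.25) and WDA1 (-0.25), all still below 0. The call of NOP as 2-fold lower at LpM in SSTL-F was lost with a prior count of 5 (-0.95) and with log2(RPKM + 1) (-0.45). Against TMM, the median of all expressed genes shifted by 0.14 at YM with the total count only and with RPKM, and by 0.18 at LpM with RPKM. The share of all expressed genes 2-fold lower in sstl-s at YM was 4.24%, and 0.945% with RPKM. At YM, 34.1% of all 2-fold calls were lower in sstl-s, and 20.0% with RPKM. At LpM it was 59.7%, and 48.3% with RPKM. In SSTL-F, 29.2% of the stage calls were lower at LpM, and 41.8% with quantile normalization. NOP, at 6 to 17 counts, and OsGPAT3, at 34 to 64, are limited by depth.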
